A study of Mus musculus with 12 samples.

Results

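Erg and Fli1 are ETS transcription factors. Every row of the table of significant contacts that names Erg or Fli1, once a suffix numbering alternative promoters was removed, was taken. This gave 6 of 89545 listed contacts, from 2 of 3781 promoter entries: 5 contacts of Erg and 1 of Fli1. The genes were taken by name, while the table itself lists only contacts whose score passed the authors' threshold.

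The study mapped the chromatin contacts of selected promoters in haematopoietic stem cells (HSCs) by Capture-C. In this assay cross-linked chromatin is cut with DpnII and ligated, and the products of chosen promoter fragments are enriched with oligonucleotide probes. The fetal group is HSCs of livers at embryonic day 14.5. The adult group is HSCs of bone marrow from mice aged 6 to 8 weeks. Both groups are B6129SF1 mice without a stated treatment or engineered allele, and both were sorted as Lin- Sca1+ cKit+ CD135- cells, a gate that stem cells share with some multipotent progenitors. Each group has 4 libraries, 2 in each of 2 batches, and Erg and Fli1 occur in the first batch only. Another 4 samples, from HPC7 cells with or without TCF3, were not used here. The table pools the libraries of a population within a batch, so no value below has a replicate error and no test between the populations was possible.

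ETS factors bind DNA at a GGAA core through a shared winged helix-turn-helix domain. In blood stem and progenitor cells Erg and Fli1 bind regulatory elements together with Tal1, Lyl1, Lmo2, Gata2 and Runx1, a group known as the heptad. Erg is required to maintain HSCs, and Fli1 acts in blood and vessel formation and in megakaryocytes. Each has an ETS relative as a neighbour in the genome, Ets2 beside Erg and Ets1 beside Fli1.

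Erg has several transcription starts, and the captured fragment carries the number of an alternative promoter (entry Erg_1, transcript ENSMUST00000113846). RefSeq gives 3 Erg start windows on the minus strand in GRCm38.p6, each 300 bases long, from 250 bases before to 50 after a start. They are shown 5′ to 3′ because the contacts below are those of an Erg promoter and because the factor's own core motif can be read in them. Capitals mark GGAA and its reverse complement TTCC.

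Erg start 1, chr16:95586544-95586843: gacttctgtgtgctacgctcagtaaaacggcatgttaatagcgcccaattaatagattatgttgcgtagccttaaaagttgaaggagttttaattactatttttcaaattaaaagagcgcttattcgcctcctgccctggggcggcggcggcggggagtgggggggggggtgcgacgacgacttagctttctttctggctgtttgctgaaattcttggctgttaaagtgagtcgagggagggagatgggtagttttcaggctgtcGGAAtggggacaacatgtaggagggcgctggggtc
Erg start 2, chr16:95530316-95530615: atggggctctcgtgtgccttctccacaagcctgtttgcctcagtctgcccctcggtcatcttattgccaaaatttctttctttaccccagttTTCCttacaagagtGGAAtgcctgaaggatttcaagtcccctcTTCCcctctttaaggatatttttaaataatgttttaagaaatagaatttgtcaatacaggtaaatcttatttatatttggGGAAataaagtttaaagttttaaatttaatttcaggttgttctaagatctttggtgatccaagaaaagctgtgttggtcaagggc
Erg start 3, chr16:95459299-95459598: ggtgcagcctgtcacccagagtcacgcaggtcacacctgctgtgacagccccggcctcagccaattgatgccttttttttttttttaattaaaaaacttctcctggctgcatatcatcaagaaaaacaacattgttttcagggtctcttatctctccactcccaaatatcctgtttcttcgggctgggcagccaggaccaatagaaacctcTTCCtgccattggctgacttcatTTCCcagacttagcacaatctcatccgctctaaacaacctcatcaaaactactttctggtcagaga

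GGAA or TTCC occurred 1 time in the first window, 4 times in the second and 2 times in the third. Of 32851 RefSeq promoter windows of this length 96.0% held the core on either strand, with a median of 3 matches, so its presence does not set Erg apart. GATAA or TTATC, which hold the GATA core, occurred 1 time in the third window and in neither other, against 25.4% of all windows. GATC, the DpnII site, occurred 2 times in the second window and in neither other, against 48.0% of all windows. These positions are in GRCm38 and the contact table is in mm9, so which of the starts the captured fragment holds was not settled here. No window of Fli1 is shown.

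Fli1 had a single listed contact, and it was with the promoter of Ets1. The captured Fli1 fragment lies on chromosome 9, 32349042 to 32349590 in mm9, is 549 bp long and stands for transcript ENSMUST00000016231. The distal bin, 32502001 to 32504001 on the same chromosome, lay 153.7 kb away and held the captured Ets1 fragment, 32501665 to 32503985. Ets1 encodes an ETS factor best known in lymphoid cells. The bin was marked as an active promoter and as open chromatin in both populations. For comparison, 18.3% of all adult calls of the first batch fell in a bin marked as an active promoter in adult cells.

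The Fli1 to Ets1 contact had 4 counts in fetal cells (exact Poisson 95% interval 1.09 to 10.2) and 14 in adult cells (7.65 to 23.5). It was called in adult cells only, with a score of 3.62. The score is the authors'. Its values look like −log10 of a p-value, with 0 where a contact was not called and 1.3 as the smallest called value in this batch. Of the adult calls of the batch 78.0% scored this low or lower. The fetal share of its counts was 22.2% (exact binomial 95% interval 6.41 to 47.6), below the 54.0% that fetal cells held of all counts within a chromosome in this batch. After scaling to those totals, and with 1 added to each side, fetal over adult counts came to -1.80 on the log2 scale. These intervals cover counting error only, and the call was made from the same counts. Among the 44945 listed contacts of the batch with at least 10 counts in both populations together, 16.1% were at least 2-fold higher in adult cells by this measure, as this contact was. It was the only one of the 6 contacts with 10 counts.

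The pair was also seen from its other end, where the captured Ets1 fragment listed the bin over the Fli1 fragment (32348001 to 32350001). There it had 12 counts in fetal and 14 in adult cells, with scores of 3.71 and 4.97, and it was called in both populations. The fetal share was 46.2% (26.6 to 66.6), an interval that holds 54.0% and overlaps that of the Fli1 end. The adult counts at the ends were equal, while the fetal count was lower at the Fli1 end. The adult-only class of the Fli1 contact was therefore not repeated from the Ets1 end. Both calls at the Ets1 end and the adult call at the Fli1 end were kept at a score of 2.3. If the score is −log10 of a p-value, this would be a p 10 times smaller than at 1.3. Of 1055 pairs of captured promoters that a first-batch promoter listed within a chromosome, 599 were listed from both ends (56.8%, 53.7 to 59.8). Of these, 385 had the same class from both ends (64.3%, 60.3 to 68.1) and 139 were adult-only from an end and shared from the other (23.2%, 19.9 to 26.8), as Fli1 and Ets1 were. For these pairs the bins of an end over the partner fragment were pooled. An end could thus count as shared through different bins, whereas Fli1 and Ets1 had a single bin at each end.

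Ets1 listed many more contacts than Fli1, and they leaned to the Fli1 side. It had 79 listed contacts, of which 53 were called in fetal cells, 51 in adult cells and 25 in both. On the Fli1 side lay 56 of them, with 32 between the fragments and 23 beyond Fli1, and 23 lay on the opposite side. Within 50 kb of the Fli1 fragment Ets1 listed 21 bins. Of these 8 were fetal-only, 6 adult-only and 7 shared, and 11 were marked as active enhancers in at least 1 population, a mark carried by the bins of 15.9% of all listed contacts of the batch. Fetal cells had 661 counts on the Fli1 side and adult cells 560, which after scaling is a ratio of 1.01. On the opposite side there were 216 and 246 counts, a scaled ratio of 0.748. Both ratios sum over listed bins, which differ in number between the sides. Among the 48 bins at least 140 kb from Ets1, the bin over the Fli1 fragment had the highest adult score, 4.97. The highest fetal score at this range was 4.87, at a bin on the opposite side of Ets1. The limit of 140 kb leaves out nearer bins with higher scores, so it bears on this rank of the Fli1 bin. Over all 79 bins the highest adult score was 6.52, at 32402001 to 32404001. The highest fetal score was 4.88, at 32410001 to 32412001. Both bins lay between the fragments and were called in both populations.

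**Figure D1:**
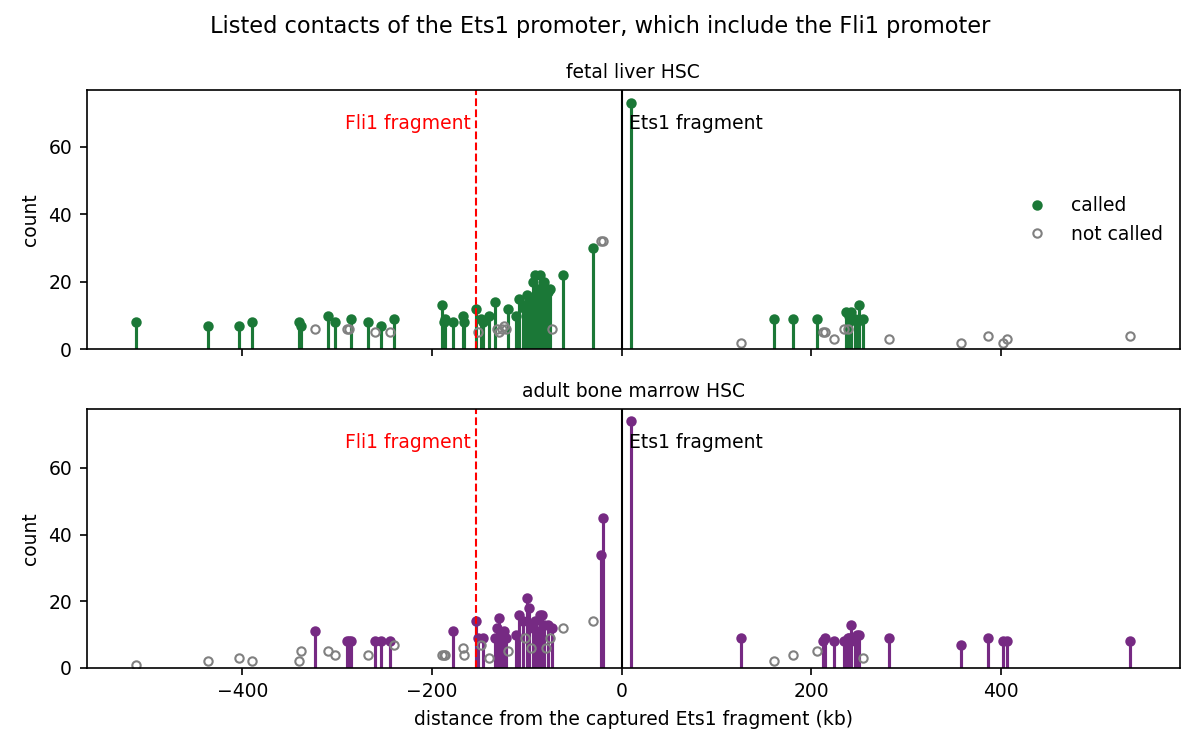
Counts (y axis) of the 79 listed contacts of the captured Ets1 fragment against the distance from it in kb (x axis), in fetal cells above and adult cells below; filled points with stems were called in that population, open grey points were not, and the dashed red line marks the captured Fli1 fragment. A called bin stands on the Fli1 line in both populations, with 12 fetal and 14 adult counts, and 56 of the 79 contacts lie on the Fli1 side.

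Erg met only distant bins, none of them in both populations, and every call rested on 5 or 6 counts. The captured Erg fragment lies on chromosome 16, 95752499 to 95753999 in mm9, and is 1501 bp long. Fetal cells had 3 of its 5 calls and adult cells the other 2. Offsets are given along the chromosome, and since Erg lies on the minus strand a negative offset points downstream.

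The fetal calls of Erg had 5 counts each. The bin at 95424001 to 95426001, 328 kb downstream, had 5 fetal and 2 adult counts and a fetal score of 1.51, and carried no mark. The bin at 96178001 to 96180001, 426 kb upstream, had 5 fetal and 2 adult counts and a score of 1.45. This was the single Erg bin marked as an active enhancer, and it was so marked in fetal cells only, while its chromatin was open in both populations. The bin at 96224001 to 96226001, 472 kb upstream, had 5 fetal counts and 1 adult count and a score of 1.51, and was open in fetal cells only. It lay 12.5 kb from the captured promoter fragment of Psmg1, which encodes a proteasome assembly chaperone.

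The adult calls of Erg had 6 counts each. The bin at 96022001 to 96024001, 269.8 kb upstream, had 2 fetal and 6 adult counts and an adult score of 1.71, with no mark. The bin at 96550001 to 96552001, 798 kb upstream, had 0 fetal counts (exact Poisson interval 0 to 3.69) and 6 adult counts with a score of 1.51. It was open in fetal cells, where it was not called, and not in adult cells. Open chromatin in the calling population was thus present at 2 of 3 fetal and 0 of 2 adult calls of Erg, against 53.0% of all fetal and 54.6% of all adult calls of the batch. With so few calls the exact intervals run from 9.43% to 99.2% and from 0% to 84.2%.

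At 4 of the 5 Erg bins the exact interval of the fetal share of counts held the 54.0% of the batch. At the bin 798 kb upstream the fetal share was 0%, with an interval of 0 to 45.9 that lies below it. These shares describe single pooled counts at bins that were listed for their counts in a population. Summed over the bins, Erg had 17 counts in each population, a log2 ratio of -0.22 after scaling and 0 without it. The calls also stood near the calling threshold, and none reached a score of 2.3. Of the fetal calls of the batch 1.18% had 5 counts or fewer, and of the adult calls 4.47% had 6 or fewer. The median called contact had 11 counts in either population.

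**Figure D2:**
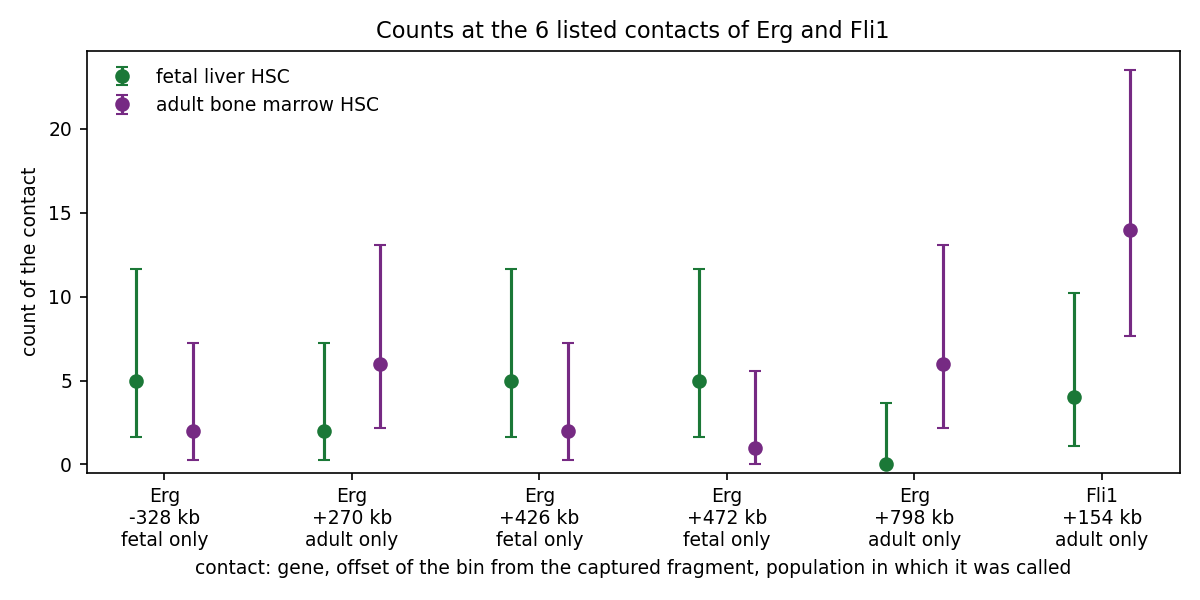
Counts in fetal (green) and adult (purple) cells at the 6 listed contacts of Erg and Fli1 (x axis, with the offset from the captured fragment in kb and the population of the call); bars are exact Poisson 95% intervals of 1 pooled count and cover counting error only. The bars overlap at every contact, and the Fli1 contact has the highest count, 14 in adult cells.

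All 6 contacts were called in a single population, as 74.3% of the listed contacts of the batch were. Fetal-only contacts made up 38.9% and adult-only contacts 35.4% of the batch, and 3 of each occurred among the 6. A lack of shared calls is common among promoters with few contacts: 40 of the 57 first-batch promoters with 5 listed contacts had none, and 77 of the 93 with 1. A called bin of the other population within 20 kb did not occur for Erg or Fli1 either.

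The reach of the contacts was long for Erg. Its nearest listed bin lay 269.8 kb away, against a median nearest distance of 53.0 kb over first-batch promoters. Only 63 of 1952 promoters (3.23%) had a nearest bin at least as far, and 3 of the 57 that also had 5 contacts. The median distance was 426 kb for the fetal and 534 kb for the adult calls of Erg, compared with 178 and 153 kb for all calls of the batch. The Fli1 contact, at 153.7 kb, stood near the adult median. Erg spans 227 kb and Fli1 121 kb in GRCm38, less than the distance of any of their bins, so all 6 bins lay outside the gene of their promoter. Blood enhancers are known within or near both genes. Windows of 5 kb to either side of positions +65, +75 and +85 kb for Erg, and -15 and +12 kb for Fli1 counted both ways, held 0 listed bins of the respective gene. This follows from the nearest distances above. Other promoters did list bins there. In the Fli1 windows Ets1 listed bins at -14.3, -12.3, 7.69, 13.7 and 19.7 kb along the chromosome. Those at -12.3, 13.7 and 19.7 kb were marked as active enhancers in both populations. The bin at 7.69 kb was so marked in fetal cells only, and the bin at -14.3 kb carried no mark. In the +85 kb window of Erg, Psmg1 listed a bin 82.2 kb downstream, marked as an active enhancer in adult cells only. The origin was the captured fragment, so for Erg these windows depend on which start it holds.

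Erg and Ets2 were not listed as a pair from either end, unlike Fli1 and Ets1. The captured Ets2 fragments lie 170 and 175 kb upstream of that of Erg, a distance like that between Fli1 and Ets1 (153.5 kb). No bin of Erg held an Ets2 fragment, and no promoter of the table listed a bin over the Erg fragment. An alternative Ets2 promoter (entry Ets2_1, 26 contacts) had a bin 4 kb from the Erg bin with the fetal enhancer mark, but none of the 5 Erg bins was listed by another promoter. A contact that was not called is not shown to be absent.

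Few contacts did not go with weak expression. The authors deposited FPKM per promoter entry, and entries of the same gene can differ: in fetal cells those of Runx1 were 7.76 and 6.33. The values below are those of the captured entries, and for Erg_1 they may not stand for the whole gene. FPKM was 16.6 (fetal) and 29.7 (adult) for the Erg entry, and 17.8 and 36.6 for that of Fli1. Adult values were 1.79 and 2.06 times the fetal ones, and the authors' deposited table marks both genes as differentially expressed, as it does 35.5% of first-batch promoter entries. The log2 ratio of fetal to adult FPKM, with 1 added, was -0.81 for Erg and -1.001 for Fli1, and 81.6% and 86.7% of first-batch promoters had a higher one. In adult cells 81.4% of first-batch promoters had a lower FPKM than Erg and 85.04% a lower one than Fli1. Of 364 promoters with at least the adult FPKM of Erg 61 had 5 listed contacts or fewer (16.8%), against 359 of all 1952 (18.4%). Of 292 with at least that of Fli1 13 had a single listed contact (4.45%), against 93 of 1952 (4.76%). The median first-batch promoter had 18.

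**Figure D3:**
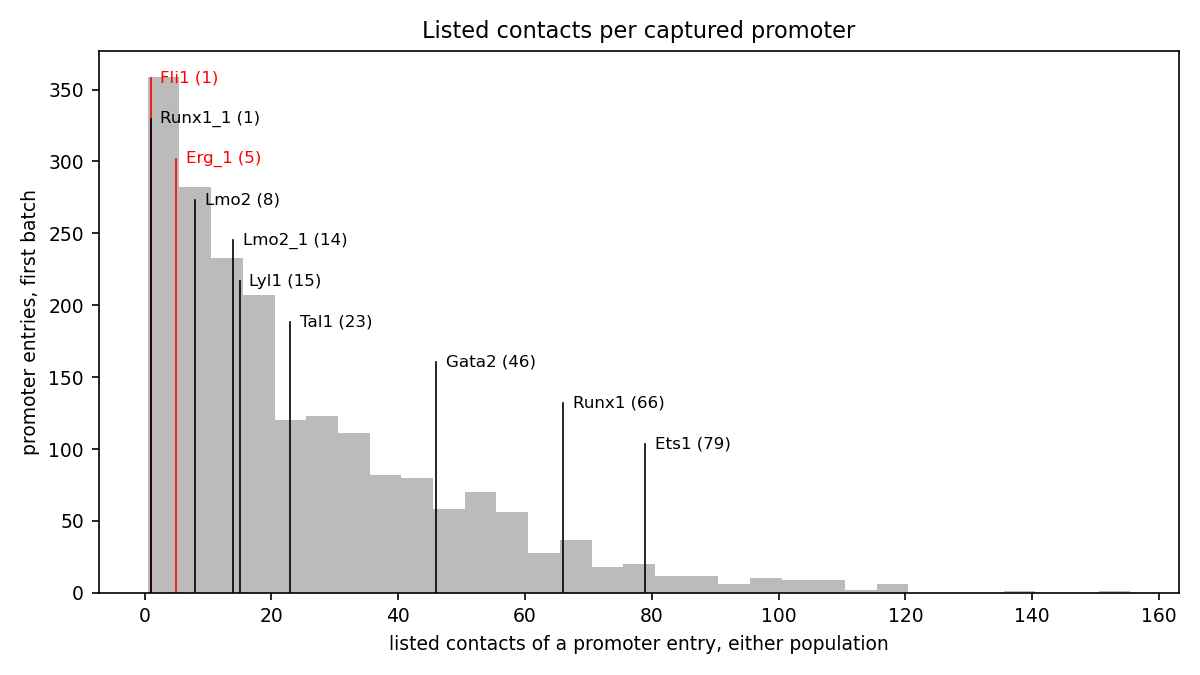
Number of first-batch promoter entries (y axis) by their listed contacts in either population (x axis, bins of 5); lines mark the heptad promoters and Ets1, with Erg and Fli1 in red. Fli1 has 1 contact and Erg 5, while Gata2 has 46, Runx1 66 and Ets1 79.

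The FPKM values are given per population, and the sample labels, all of Capture-C libraries, do not state which sorted cells gave the RNA. If they compare whole sorted populations, a change in the cell types within a population cannot be told apart from a change per cell. Among captured genes, 6 of 8 stem and progenitor markers were measured, summing to 145 (fetal) and 194 (adult) FPKM, with 4 higher in adult cells, such as Kit at 32.8 and 50.5, and 2 higher in fetal cells, Cd34 at 36.3 and 26.5 and Procr at 10.4 and 8.94. Myeloid markers (4 of 5 measured) summed to 64.1 and 3.88 FPKM, erythroid markers (4 of 4) to 47.6 and 8.95, and macrophage markers (3 of 4) to 12.2 and 0.874, all of them higher in fetal cells. Endothelial markers, which matter because Erg and Fli1 are also expressed in endothelium, summed to 8.94 and 8.49 FPKM (3 of 3). Cdh5, the endothelial cadherin, stood at 2.53 and 0.00611, Pecam1 at 5.82 and 7.90, and Kdr at 0.585 and 0.583. Flt3, the CD135 of the sort, stood at 6.20 and 3.81 FPKM. Their part in the values of Erg and Fli1 was not tested.

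The other heptad genes had higher adult values too, as Erg and Fli1 did, and most of their promoters had more contacts. All 7 heptad genes were captured, with 9 promoter entries, and all 7 had a higher FPKM in adult cells, against 52.5% of all 3373 genes. The authors' deposited table marks 4 of the 7 as differentially expressed, namely Erg, Fli1, Gata2 (21.9 fetal and 57.3 adult FPKM) and Lmo2 (125 and 262 FPKM). Of all first-batch entries 19.7% were so marked and higher in adult cells. Gata2 is a zinc finger factor of stem cells, and Lmo2 is the adaptor that joins Tal1 and Gata2. Their median log2 ratio was -0.81, against -0.13 over all genes. Listed contacts per entry ran from 1 to 66 with a median of 14, compared with 17 over all entries. Numbers of calls had no common direction, with 4 entries having more fetal calls, 4 more adult calls and 1 equal numbers. An alternative Runx1 promoter, with 1 adult-only contact, was as sparse as Fli1, whereas the Runx1 promoter with most contacts had 66.

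Within the ETS family 12 of 26 genes were captured, with 15 promoter entries, a median of 7 listed contacts and a range from 1 to 79. Of the 12 genes 9 had a higher FPKM in adult cells, and the authors' deposited table marks 5 of these as differentially expressed. Besides Erg and Fli1 these were Etv6 (16.3 fetal and 30.1 adult FPKM), a repressor needed by adult HSCs, Elf1 (10.9 and 22.7) and Elk4 (3.49 and 7.27). Ets2 (6.99 and 4.54) and Spi1, the myeloid factor PU.1 (24.8 and 15.5), were marked and higher in fetal cells, as 15.8% of first-batch entries were, against the 19.7% marked and higher in adult cells. The entries of Spi1 differed in this: another of them (13.5 and 9.17) was higher in fetal cells but not marked. Elk4 belongs to the second batch, where every entry is marked. The neighbours thus differed from Erg and Fli1 in expression, with Ets2 in the opposite direction and Ets1 low and not marked (1.88 and 2.14 FPKM). The family's median log2 ratio was -0.21, near the -0.13 of all genes. Entries with more fetal calls numbered 6 and with more adult calls 7.

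**Figure D4:**
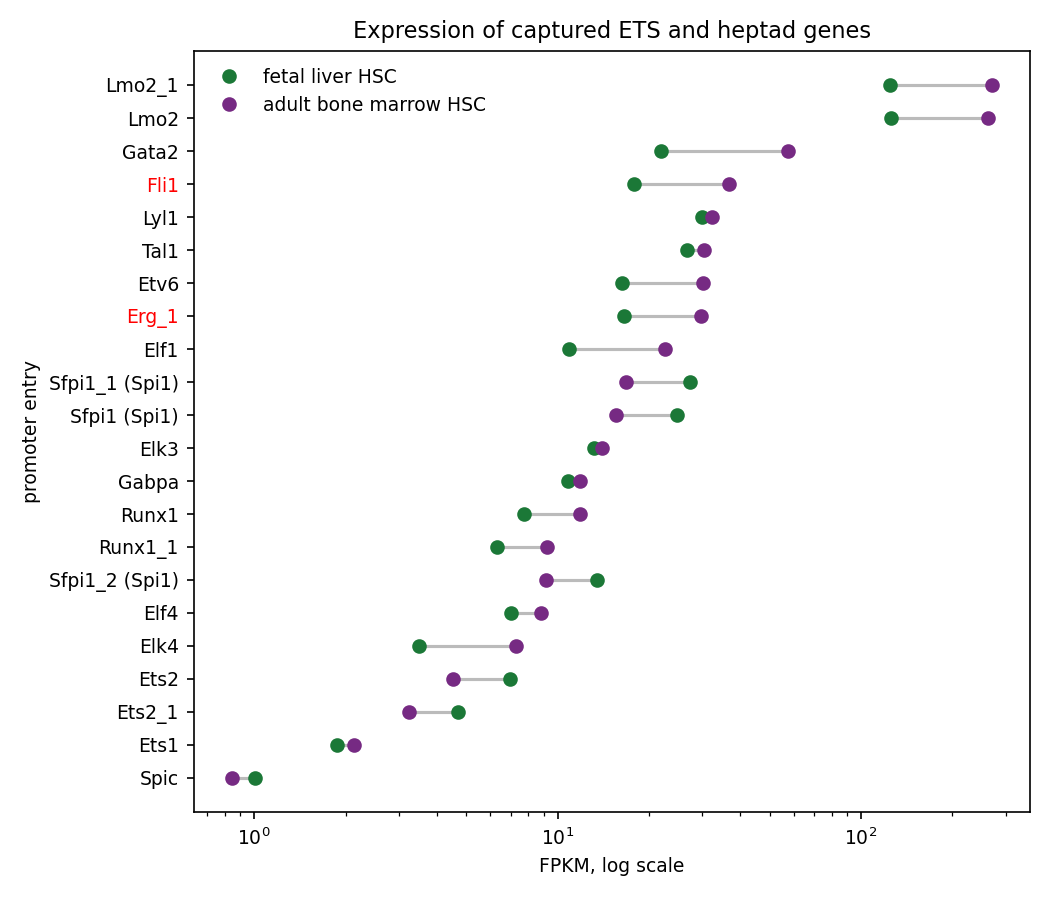
FPKM (x axis, log scale) of captured ETS family and heptad genes, 1 row per promoter entry, in fetal (green) and adult (purple) cells; each point is the authors' single pooled value without a replicate error. Erg and Fli1, with red labels, lie right of their fetal values in adult cells (29.7 and 36.6 FPKM), while both Ets2 entries and all Spi1 entries are higher in fetal cells.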

How the data were processed

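Contacts were read from 1 deposited table. Reads were handled with Trim Galore 0.41 and Bowtie2 2.2.2 on mm9, per the submitters' processing notes; read filters and the treatment of duplicates are not given in the sources used here. The authors deposited, per population, a score, a whole-number count per 2 kb bin, which may be a sum or mean of the libraries, FPKM values, and marks of 0 or 1 for bin states, whose making is not stated. Columns without a group numbered 0.

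A contact was called where its score was above 0. Counts were scaled to 892529 fetal and 759999 adult counts over listed first-batch contacts within a chromosome; library depth is unknown. Ratios are log2 after adding 1. Shares have Clopper-Pearson and counts exact Poisson 95% intervals (Python 3.11.15, scipy 1.17.1). The planned edgeR test needs library counts and was not run. Counting functions were tested on simulated data. Names were matched to GRCm38.p6 (3046 of 3374 directly, 302 through a synonym). Named bins were to be those with the highest scores, enhancer marks, extreme distances or largest count ratios, which took in all 6. Members and lists were chosen with earlier results of these data known.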

Additional observations from a re-analysis of the deposited data

How the results depend on the processing

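At a score 1 unit higher (2.3), the 3 fetal and 2 adult calls of Erg fell to 0 and 0, while the Fli1 call and both Ets1 calls over Fli1 were kept. Of 50 alternatives, over 25 results, 47 left the value equal or within its counting interval. Among them, merging bins and leaving out contacts under 20 kb could not change any value and so say nothing on robustness. The nearest bins of Erg and Fli1 lay 269.8 and 153.7 kb away, and no bins of Erg lay within the merging gap of 5 kb. Another of the 47, the Erg count ratio without scaling, moved from -0.22 to 0 and so lost its direction. No Erg contact reached 10 counts, and none of Erg or Fli1 reached 20; without a minimum, chosen after seeing the data, 3 of 5 Erg contacts, against 0 with it, passed 2-fold. No paired analysis was possible because the table has no values per library, and leaving out replicates was not run for the same reason. Every Erg contact rests on 8 counts or fewer in both populations together.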

Other observations

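Other promoters listed bins in the neighbourhood of Erg, none of them over its fragment. Within 200 kb of it, 22 bins were listed by other promoters, 20 by Psmg1 and 2 by the alternative Ets2 promoter, the nearest 58.2 kb away. Most Psmg1 bins lay between the Erg and Psmg1 fragments, so those contacts do not span Erg. Psmg1 had 15 of its 20 called in fetal cells only, 4 in adult cells only and 1 in both. In the batch 38.9% of listed contacts were fetal-only and 35.4% adult-only. The shared bin, 169.8 kb upstream with scores of 5.12 and 2.26, held the captured fragment of the alternative Ets2 promoter. The fetal-only bin 175.8 kb upstream overlapped the other captured Ets2 fragment. Of the 22 bins 4 were marked as active enhancers in at least 1 population, against 15.9% of all listed contacts of the batch. All 4 lay on the downstream side of the Erg fragment. The one so marked in both populations lay 90.2 kb downstream and was called from Psmg1 in adult cells only, with 5 fetal and 11 adult counts. The bin 82.2 kb downstream, marked in adult cells only, was called from Psmg1 in fetal cells only, with 7 fetal and 2 adult counts. Both Ets2 bins, 102 and 186 kb downstream, were marked in fetal cells only and called there only, with 8 fetal counts each and 1 and 2 adult counts.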
